A study of Mus musculus with 8 samples.

Results

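Espl1, Bub1b and Mdm2 are genes of cell division and of p53 control, and the table of circular RNAs (circRNAs) from mouse kidney lists 7 circRNAs made from them, out of 6315 in all. Every row whose gene name is 1 of these 3 was taken: 1 circRNA of Espl1, 4 of Bub1b and 2 of Mdm2. A circRNA is a closed loop formed when the end of an exon is spliced back to the start of the same or an earlier exon, and its reads are recognised by that junction. The 3 hosts were chosen after their differences from control kidney were known, so every value against control below is a description and supports nothing by itself.

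The libraries are total RNA from kidneys of mice aged 8 to 10 weeks, of a strain the labels write as C57BL/6L. The 3 control libraries are titled wild type in the labels, while the design text calls the controls sham-operated. The acute-chronic group (AC, 2 libraries) and the group with unilateral ureteral obstruction (UUO, 3 libraries) carry a 5-day mark in their titles, and the design text puts the harvest at 5 days after ischaemia/reperfusion or obstruction. No agent or genetic change is named for any group, and the labels do not tie the libraries to separate animals. Errors and p-values below therefore reflect library-to-library variation, part of which may be technical. Library totals ran from 40865 to 65145 counts, and 1 count was worth between 18.9 and 29.2 CPM, which are counts scaled to the tested total of the library with TMM factors.

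Separase, the product of Espl1, is the protease that cuts the cohesin ring at anaphase and so lets sister chromatids part. Until then it is held back by securin and by the spindle checkpoint, in which BubR1, the product of Bub1b, helps to restrain the anaphase-promoting complex while kinetochores remain unattached. Mdm2 is the ubiquitin ligase that marks p53 for destruction, and its own gene is a p53 target, which closes a feedback loop. Most tubule cells of the adult kidney are at rest and can re-enter the cell cycle after injury. A circRNA count gives the circular product of a host gene, not the level of its mRNA or protein, and the linear transcripts were not analysed here.

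The promoters of the hosts are shown because genes of mitosis are known to share a cell cycle homology region and CCAAT boxes near their start sites. The windows are from RefSeq on build GRCm38.p6 and run from 250 bases before to 50 bases after the start site, 5′ to 3′ on the strand of the gene; all 3 hosts matched a window. The search covered both strands for TTTGAA (the cell cycle homology region), CCAAT (seen as ATTGG on the other strand), the E2F sites TTTGGCGC and TTTCGCGC, and the p53 decamer, which is given by name. Capitals mark matches to the first 2 of these motifs, and no match was found to the E2F letters.
Espl1, chr15:102296043-102296342, plus strand: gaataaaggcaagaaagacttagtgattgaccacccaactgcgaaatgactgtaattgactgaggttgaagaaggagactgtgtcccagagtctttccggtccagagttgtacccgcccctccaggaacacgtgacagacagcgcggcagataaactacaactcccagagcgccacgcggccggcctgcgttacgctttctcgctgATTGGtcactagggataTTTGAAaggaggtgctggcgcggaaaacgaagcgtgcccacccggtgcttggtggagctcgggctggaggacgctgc
Bub1b, chr2:118597961-118598260, plus strand: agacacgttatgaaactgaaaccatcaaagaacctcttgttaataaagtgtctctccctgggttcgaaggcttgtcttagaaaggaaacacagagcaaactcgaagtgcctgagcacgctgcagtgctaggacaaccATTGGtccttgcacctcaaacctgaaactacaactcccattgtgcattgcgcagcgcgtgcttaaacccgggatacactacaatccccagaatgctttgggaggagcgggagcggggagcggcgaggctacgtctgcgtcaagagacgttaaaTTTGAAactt
Mdm2, chr10:117710709-117711008, minus strand: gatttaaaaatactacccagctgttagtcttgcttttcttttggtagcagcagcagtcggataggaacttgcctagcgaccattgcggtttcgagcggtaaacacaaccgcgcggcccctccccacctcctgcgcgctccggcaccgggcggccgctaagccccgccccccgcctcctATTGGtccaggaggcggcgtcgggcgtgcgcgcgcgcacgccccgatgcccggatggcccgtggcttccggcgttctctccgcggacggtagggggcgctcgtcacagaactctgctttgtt

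Espl1 held both cell cycle motifs upstream of its start, with TTTGAA from -27 to -22 and the CCAAT box from -44 to -40. Bub1b held the CCAAT box from -113 to -109 and TTTGAA after the start, from 41 to 46. Mdm2 held the CCAAT box alone of these motifs, from -72 to -68. The p53 decamer was matched in Bub1b from -183 to -174 and in Mdm2 from -186 to -177, with no overlap with another match, and not in Espl1. Of 32851 such windows in the mouse table, 17.9% held TTTGAA, 37.4% CCAAT, 6.95% both, 0.813% an E2F site and 8.36% the p53 decamer. These matches describe letters only, and no binding was measured.

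The Espl1 circRNA, mmu_circ_0000652, was seen in every injured library and in no control library. Its counts were 0, 0 and 0 in control, 13 and 9 in AC, and 9, 16 and 12 in UUO. In CPM it stood at 306 and 263 in AC and at 228, 374 and 252 in UUO. The groups did not overlap with control, while the AC values lay within the range of UUO. The mean was 284 ± 30.9 CPM (SD, n = 2) in AC and 285 ± 78.0 CPM (SD, n = 3) in UUO.

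The 3 control libraries together would have shown 3 counts of a circRNA at 21.6 CPM, and against that floor the Espl1 circRNA was at least 13.2-fold higher in both AC and UUO. The bound covers counting error of the control group only. A count of 0 in every control with a count above 0 in all 5 injured libraries was found for 12 of the 6315 circRNAs, or 0.19%, and for 0.204% of the 1471 that passed the filter on low counts. By summed injured count, Espl1 came second of these 12 with 59, after a circRNA of Osmr with 61, the oncostatin M receptor (mmu_circ_0005739). The Espl1 circRNA passed the filter only through the injured groups, so it had to differ from control once it was tested.

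The main circRNA of Bub1b, mmu_circ_0001058, was present in all 8 libraries and was highest in UUO. Its counts were 11, 21 and 17 in control, 23 and 22 in AC, and 38, 45 and 39 in UUO. In CPM these were 292, 396 and 351 in control, 542 and 642 in AC, and 964, 1051 and 819 in UUO. The 3 groups formed 3 ranges with no overlap: every AC library lay above every control library and below every UUO library. The control mean was 347 ± 52.1 CPM (SD, n = 3) and the UUO mean 945 ± 117 CPM (SD, n = 3), a ratio of 2.72 with a fitted log2 fold change of 1.43 with a standard error (SE) of 0.35. In AC the mean was 592 ± 70.6 CPM (SD, n = 2), a ratio of 1.71 and a log2 fold change of 0.75 (SE 0.40). The plot of the 3 members by group shows these levels beside those of Espl1 and Mdm2.

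**Figure D1:**
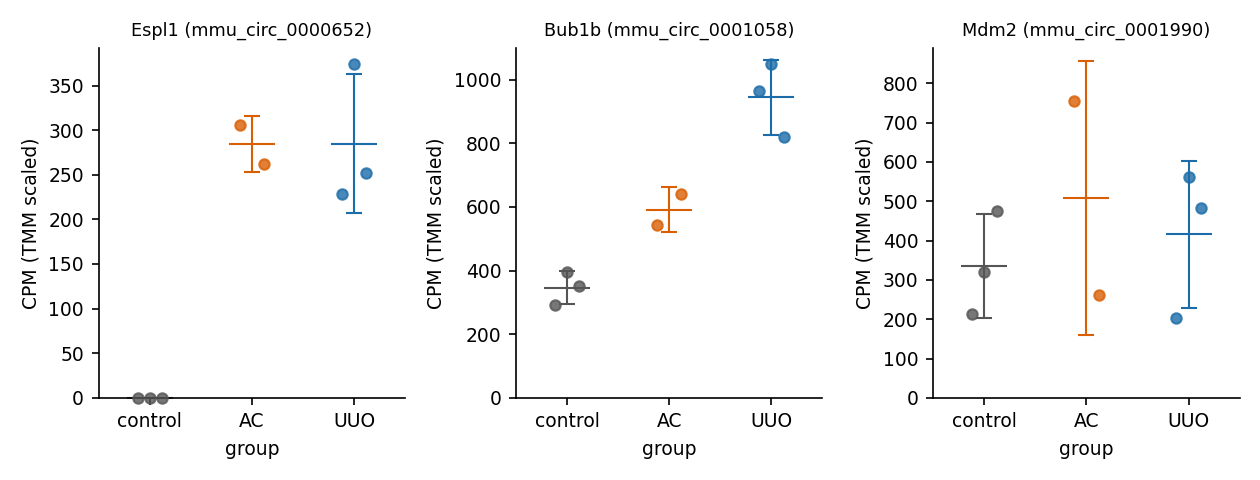
Levels in CPM (vertical axes, from 0) of the circRNAs of Espl1, Bub1b and Mdm2 in the control, AC and UUO groups; each point is a library, the wide tick is the group mean and the bars are ± 1 SD. Espl1 is at 0 in the 3 controls, Bub1b forms 3 separate ranges, and Mdm2 runs from 203 to 754 CPM with all groups overlapping.

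The other Bub1b circRNAs were sparse and uneven, and none passed the filter. The most counted, mmu_circ_0009211, had 0, 0 and 4 counts in control, 24 and 2 in AC, and 9, 0 and 3 in UUO. Of its 42 counts, 24 came from AC replicate 1, where its level was 565 CPM against 58.3 CPM in AC replicate 2. The circRNA mmu_circ_0009210 had 3 counts in control replicate 1, 3 in UUO replicate 1 and 0 elsewhere. The last, mmu_circ_0009209, had 1 count in AC replicate 2 and 0 in the other 7 libraries. At these counts no difference between groups was detectable for the 2 rarest.

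The share of the main circRNA among all Bub1b circRNA counts was therefore not the same in every library. In control replicates 1 to 3 it was 78.6%, 100% and 81.0%, of 14, 21 and 21 counts. It was 48.9% of 47 counts in AC replicate 1, with an exact Clopper-Pearson 95% interval from 34.1% to 63.9%, and 88.0% of 25 counts in AC replicate 2, with an interval from 68.8% to 97.5%. In UUO it was 76.0%, 100% and 92.9%, of 50, 45 and 42 counts. AC replicate 1 stood below the other 7 libraries, and its interval did not meet that of the other AC library. It did meet those of control replicates 1 (from 49.2%) and 3 (from 58.1%) and of UUO replicate 1 (from 61.8%). Those of control replicate 2 and UUO replicates 2 and 3 lay above it. These intervals and floors cover counting error only.

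**Figure D2:**
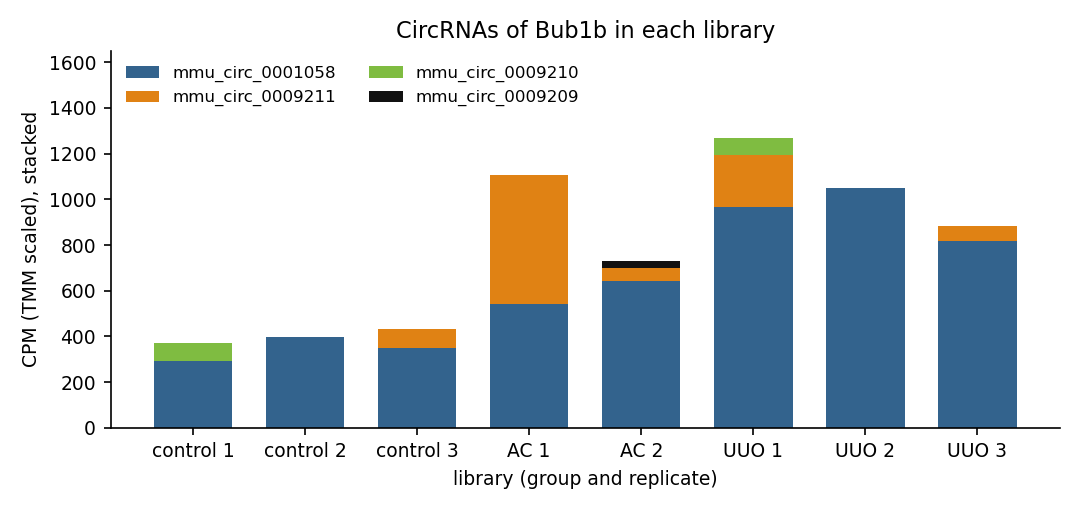
Stacked level in CPM (vertical axis, from 0) of the 4 Bub1b circRNAs in each of the 8 libraries (horizontal axis). The main circRNA makes up most of each bar except in AC replicate 1, where mmu_circ_0009211 reaches 565 CPM.

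Summed over its 4 circRNAs and scaled to the totals of a table of host sums, Bub1b stood at 342, 374 and 406 CPM in control, 1022 and 654 CPM in AC, and 1163, 935 and 783 CPM in UUO. Control lay below both injured groups, and the AC and UUO ranges overlapped, unlike those of the main circRNA alone. The summed log2 fold change was 1.35 (SE 0.36) in UUO and 1.16 (SE 0.40) in AC. Among host sums, Espl1 was called as higher in both contrasts and Bub1b in UUO alone, as were 3.71% of the 1185 tested hosts in UUO and 2.03% in AC. Espl1 has only 1 circRNA, so its sum holds the same counts, with 0 in every control, and its call is no separate result. The UUO call of the Bub1b sum was lost without control replicate 1 (1.29) or 3 (1.44) and without UUO replicate 1 (1.25) or 2 (1.38). The call of the Espl1 sum was lost in UUO without UUO replicate 2 (6.38) and in AC without AC replicate 1 (6.49). For the Bub1b sum the AC value was 0.81 with AC replicate 1 left out and 1.42 without AC replicate 2.

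The main Mdm2 circRNA, mmu_circ_0001990, varied as much within groups as between them. Its counts were 8, 17 and 23 in control, 32 and 9 in AC, and 8, 24 and 23 in UUO. In CPM these were 213, 321 and 476 in control, 754 and 263 in AC, and 203, 560 and 483 in UUO. The highest level of all was in AC replicate 1 and the lowest in UUO replicate 1, and every group overlapped with the others. The log2 fold change was 0.30 (SE 0.53) in UUO, with a 95% interval from -0.82 to 1.41, and 0.60 (SE 0.58) in AC, with an interval from -0.63 to 1.82. Without AC replicate 1 the AC value turned to -0.41, and without AC replicate 2 it was 1.12. The other Mdm2 circRNA, mmu_circ_0001991, had 1 count in UUO replicate 1 and 0 elsewhere, and its source transcript is annotated as a retained intron in GENCODE M21.

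In the fit over all 1471 circRNAs that passed the filter, 3 of the 7 members were tested, 1 per host. In UUO against control 2 of them, Espl1 and Bub1b, were called as higher (adjusted p under 0.05), as were 2.86% of all tested circRNAs. In AC against control Espl1 alone was called, as were 1.9% of all tested circRNAs. Of the 3, Espl1 and Bub1b also had no overlap with control in either contrast, as 13.3% of tested circRNAs did upwards in UUO and 15.4% in AC (24.3% and 30.7% in either direction). Both contrasts took part in the choice of these hosts and share the 3 controls, so nothing is read from these counts. With 1 library left out, the UUO call of Bub1b was lost without control replicate 1, 2 or 3 (log2 fold change 1.33, 1.52 and 1.40) and without UUO replicate 1, 2 or 3 (1.42, 1.36 and 1.5). The UUO call of Espl1 was lost without control replicate 3 (6.60) and without UUO replicate 1, 2 or 3 (6.79, 6.40 and 6.69). Its AC call was lost without control replicate 3 (6.59), AC replicate 1 (6.50) and UUO replicate 1, 2 or 3 (6.66, 6.64 and 6.60). The fitted values of Espl1 depend on the prior count, since the control group is at 0, and are no bound. The direction of Bub1b and Espl1 against control held in all 15 alternatives in UUO and in AC. For Espl1 this was fixed in advance by the control group at 0, and Bub1b was chosen with its difference known.

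When libraries were scaled by the constant deposited for each, the log2 fold change of the median circRNA went from 0.02 to -0.26 in UUO and from -0.02 to -0.34 in AC. Under that scaling Bub1b was at 1.13 in UUO, where its call was lost, and at 0.40 in AC, and Mdm2 was at 0.02 in UUO and 0.29 in AC. Relative to the median of all circRNAs each of these values stayed positive.

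**Figure D3:**
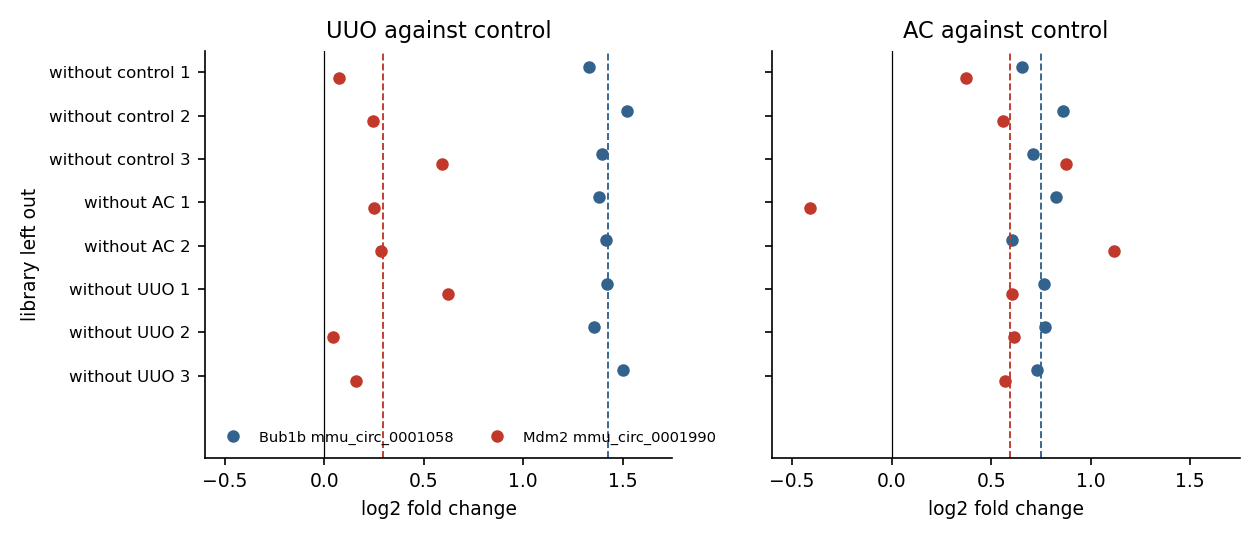
Log2 fold change against control (horizontal axes) of the main Bub1b and Mdm2 circRNAs in UUO (left) and AC (right) with the library on the vertical axis left out; dashed lines are the values with all 8 libraries. Bub1b stays between 1.33 and 1.52 in UUO and between 0.61 and 0.86 in AC, while Mdm2 in AC falls to -0.41 without AC replicate 1.

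The direct comparison of UUO with AC did not use the controls in its contrast. Bub1b differed most among the 3, with all 3 UUO libraries above both AC libraries, as for 13.2% of all tested circRNAs. Its mean was 1.60-fold higher in UUO, with a log2 difference of 0.67 (SE 0.39, 95% interval from -0.14 to 1.49), which did not pass (edgeR quasi-likelihood adjusted p = 0.874). Mdm2 had a log2 difference of -0.30 (SE 0.58, interval from -1.52 to 0.92, edgeR adjusted p = 0.991), which turned to 0.66 without AC replicate 1 and to 0.02 without UUO replicate 1. That of Espl1 was -0.00033 (SE 0.89), and its interval from -1.91 to 1.91 leaves room for a difference of over 3-fold in either direction. None of the 3 had an unadjusted p under 0.05 in edgeR; the lowest was 0.0987 for Bub1b. Over all tested circRNAs edgeR and limma-voom called 0 (0.0%), DESeq2 called 2, and 82, or 5.57%, had an unadjusted edgeR p under 0.05.

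The first column of the table, headed as experimental evidence, was filled for the Espl1 circRNA and for the main Bub1b circRNA, which carry RefSeq source transcripts, and empty for the other 5, which carry Ensembl ones. Over the whole table it was filled for 17.2% of circRNAs and for 38.1% of those tested. The median total count over the 8 libraries was 56 in filled and 11 in empty rows of the whole table, and 137.5 and 6 among the members. The Mdm2 circRNA, with a total of 144 counts, was in an empty row and had more counts than that of Espl1, with 59 in a filled one.

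Likeness of pattern was measured as the mean absolute difference of log2 CPM over the 8 libraries after each circRNA was centred on its own mean; the points share these libraries, and low counts add noise. Nearest to Espl1 among 1470 circRNAs of other hosts were those of Osmr at 0.23, Samd4, an RNA-binding translational repressor, at 0.33 (mmu_circ_0000529), and Nav3, a microtubule-associated protein, at 0.35 (mmu_circ_0000211), where the median circRNA was at 1.35. The Samd4 circRNA had 2, 6 and 7 counts in control, 41 and 39 in AC, and 51, 45 and 63 in UUO. Nearest to the main Bub1b circRNA were Amotl1, a Hippo pathway scaffold, at 0.14 (mmu_circ_0001745), Dcbld2, a transmembrane receptor, at 0.15 (mmu_circ_0000693), and Ncoa3, a nuclear receptor coactivator, at 0.21 (mmu_circ_0009572), with a median of 0.72. The Amotl1 circRNA had 18, 29 and 21 counts in control, 34 and 34 in AC, and 37, 61 and 53 in UUO. These counts are not scaled to library size, and the circRNA was picked for its likeness to Bub1b.

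Among those nearest to Mdm2 were a circRNA whose gene name had become a number in the table, at 0.24 (mmu_circ_0002305), and Wbscr22, a ribosomal RNA methyltransferase, at 0.26 (mmu_circ_0012198), with a median of 0.70. Both had, like Mdm2, more counts in AC replicate 1 than in AC replicate 2: 27 against 7 and 16 against 6. Among the members, Espl1 and Bub1b were 0.81 apart, Bub1b and Mdm2 0.61, and Espl1 and Mdm2 1.18. These stand beside medians of 1.35 for Espl1, 0.72 for Bub1b and 0.70 for Mdm2. The nearest circRNAs were picked for likeness, so they had to be closer than the members.

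The other genes of these pathways were taken from 6 lists that hold 163 genes without the 3 hosts. Of these, 46 hosts had 102 circRNAs in the table and 11 hosts had 16 circRNAs that passed the filter. In UUO and in AC against control, 0 of the 16 passed in edgeR, in DESeq2 or in limma-voom, and 0 had an unadjusted edgeR p under 0.05; DESeq2 gave 11 of them an adjusted p in AC. The background was 4.35% of all tested circRNAs past the threshold in UUO and 3.33% in AC. The median log2 fold change of the 16 was -0.05 in UUO and -0.14 in AC, against 0.02 and -0.02 over all tested circRNAs, and 7 and 8 of the 16 were positive. Groups did not overlap for 1 of the 16 in UUO and for 4 in AC, beside the 24.3% and 30.7% given above. In AC those of Huwe1 and Esco1 (mmu_circ_0007120) stood above control, and those of Smc3 and Cit below it.

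The separase and cohesion list gave 9 of the 16, from 5 of its 18 genes. Their median log2 fold change was -0.04 in UUO and 0.03 in AC. The circRNA of Smc3, a core cohesin subunit (mmu_circ_0007891), had 36, 74 and 56 counts in control, 33 and 29 in AC, and 33, 52 and 65 in UUO, a log2 fold change of -0.04 (SE 0.30) in UUO and -0.53 (SE 0.35) in AC. The circRNA of Wapal, which releases cohesin from chromatin (mmu_circ_0000522), had 58, 24 and 40 counts in control, 46 and 47 in AC, and 42, 42 and 54 in UUO. A circRNA of Esco1, the acetyltransferase that stabilises cohesin (mmu_circ_0000845), had 15, 38 and 28 counts in control and 19, 17 and 10 in UUO, but 78 and 11 in AC. As with the Bub1b circRNA mmu_circ_0009211, 1 AC library, replicate 1, held most of the AC counts. The remaining circRNAs of the list, 1 more of Esco1, 4 of Stag1 and 1 of Smc1a, had log2 fold changes from -0.32 to 1.33 in UUO.

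The spindle checkpoint and kinetochore list, the closest to Bub1b, had 0 tested circRNAs and 3 of 27 genes listed. Those were Mad1l1, the checkpoint protein that recruits Mad2, Casc5, the kinetochore scaffold, and Zwilch, of the complex that brings dynein to kinetochores. Mad1l1 had 1, 0 and 1 counts in control, 2 and 0 in AC, and 4, 2 and 3 in UUO. Casc5 had 0, 0 and 3 counts in control, 0 and 6 in AC, and 0, 2 and 7 in UUO. Zwilch had 1, 2 and 2 counts in control, 0 and 0 in AC, and 7, 5 and 0 in UUO. The anaphase-promoting complex had 6 of 17 genes listed and 1 tested circRNA, of the scaffold subunit Anapc1 (mmu_circ_0009324), with 6, 12 and 24 counts in control, 6 and 16 in AC, and 7, 2 and 19 in UUO. Its log2 fold change was -0.49 (SE 0.74) in UUO and 0.02 (SE 0.83) in AC.

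The p53 list had 5 of 38 genes listed and 3 tested circRNAs, whose groups all overlapped with control in UUO; in AC that of Huwe1 did not. That of Trp53bp1, a damage response adaptor (mmu_circ_0009261), had 22, 13 and 15 counts in control, 20 and 18 in AC, and 15, 20 and 32 in UUO, a log2 fold change of 0.44 (SE 0.44) in UUO and 0.41 (SE 0.50) in AC. Those of Huwe1 and Trim24, both ubiquitin ligases that act on p53, were at 0.20 (SE 0.62; mmu_circ_0001900) and -0.41 (SE 0.61; mmu_circ_0013341) in UUO. In AC they were at 0.37 (SE 0.69) and -0.52 (SE 0.71), and the Huwe1 circRNA stood at 306 and 350.0 CPM in AC against 227 to 266 CPM in control. The DNA damage kinase list had 6 of 15 genes listed and 0 tested.

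The cell cycle list had 15 of 48 genes listed and 3 tested circRNAs. A pair came from Lin54, the DNA-binding subunit of the complex that recognises the cell cycle homology region, at -0.69 (SE 0.44; mmu_circ_0011922) and 0.50 (SE 0.53; mmu_circ_0001368) in UUO. In AC this pair was at -0.61 (SE 0.50) and -0.30 (SE 0.63), with overlap with control. The third, from Cit, the citron kinase of cytokinesis (mmu_circ_0012039), was at -0.42 (SE 0.51) in UUO and -1.01 (SE 0.61) in AC. Both AC libraries lay below every control for Cit. Over the 6 lists, 0 of the 16 tested circRNAs were called, beside 4.35% of all tested circRNAs in UUO and 3.33% in AC. Espl1 and Bub1b were chosen with their differences known, so nothing is read from setting these lists beside them.

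**Figure D4:**
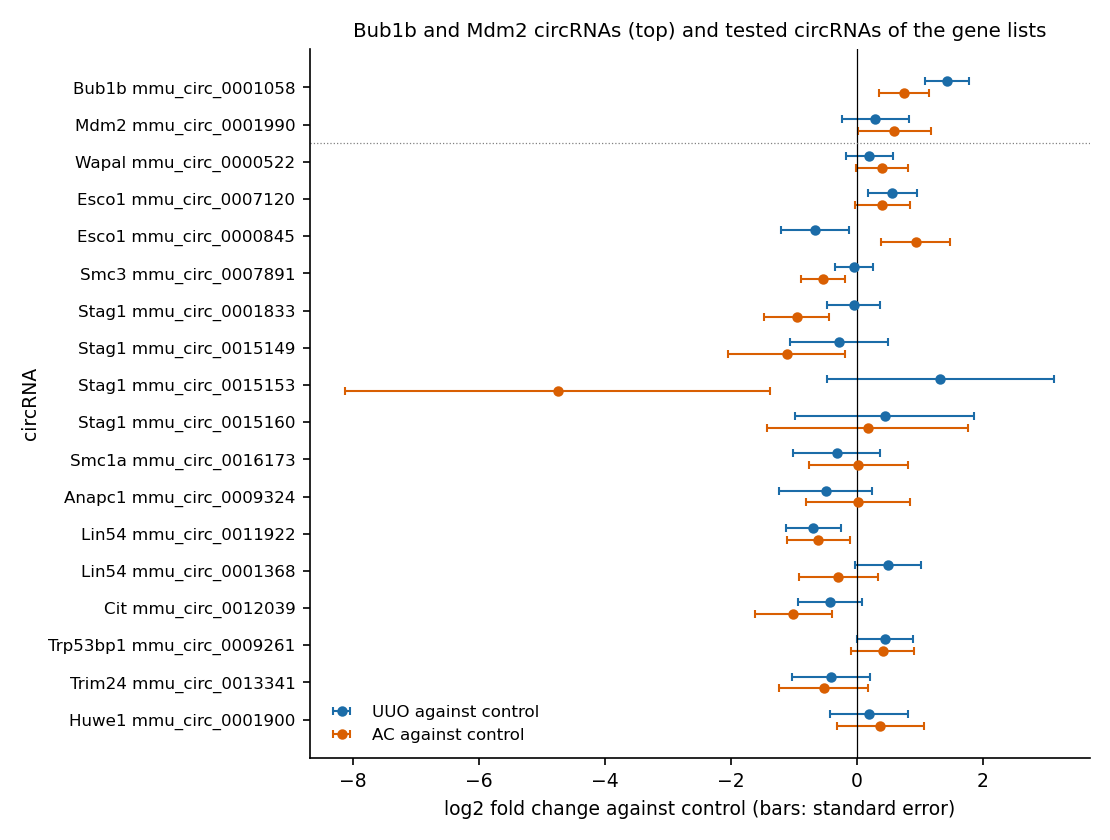
Log2 fold change against control (horizontal axis, bars are the standard error) of the main Bub1b and Mdm2 circRNAs, above the dotted line, and of the 16 tested circRNAs of the gene lists, below it, in UUO and AC. Espl1 is left out because its control group is at 0; the wide bar at -4.75 is a Stag1 circRNA with 0 counts in both AC libraries and in 2 of the 3 controls.

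In bulk kidney RNA, fewer or more cells of a type and less or more RNA per cell cannot be told apart. The marker lists could be checked only in part: of 12 proximal tubule markers, Lrp2 and Slc4a4 had circRNAs, of 7 endothelial markers Flt1 and Tek did, and 0 of the markers of the loop and distal nephron, podocytes, fibroblasts, leukocytes or injured tubule did. The summed level of the 6 proximal tubule circRNAs ran from 1622 to 3435 CPM in control, from 1313 to 1555 CPM in AC and from 1197 to 1649 CPM in UUO. That of the 3 endothelial circRNAs ran from 94.4 to 133 CPM in control, from 0 to 263 CPM in AC and from 25.4 to 210.0 CPM in UUO. Of the 6 proximal tubule circRNAs 3 were tested, and 1 was called in AC and 0 in UUO against control. Over all tested circRNAs 3.33% were called in AC and 4.35% in UUO. The proximal tubule sum was below every control in both AC libraries and overlapped with control in UUO, and its part in the values of Espl1 and Bub1b was not tested.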

How the data were processed

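Counts per circRNA and library were deposited by the authors as whole numbers without normalization; a second deposited signal table holds each count divided by 1 constant per library, and multiplied back, 100% of its values were whole within 0.01. The submitters' processing notes name build mm9 with the tools HISAT2 and StringTie. The caller of circular junctions, and how it counted reads shared by circRNAs of a host: not given in the sources used here. The reference at hand is of build GRCm38, so no circRNA coordinates are given.

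In R 4.3.3, edgeR 4.0.16 fitted the 8 libraries of all groups together (quasi-likelihood F test), with TMM factors, its default filter (count minimum 10, total minimum 15) and Benjamini-Hochberg adjustment over 1471 circRNAs (threshold 0.05). Host sums covered 2841 hosts, 1185 of them tested; 32 circRNAs had no host. A standard error is the absolute log2 fold change divided by the root of its F statistic. Intervals and floors use a 95% level and 3 counts. The script was tested on simulated data. Alternatives were DESeq2 1.42.0, limma-voom 3.58.1, other scalings, no filter, a replicate block and leaving out each library.

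Hosts, lists and alternatives were chosen with earlier results of these data known. Named circRNAs were all rows of the 3 hosts, from each list those past the threshold and otherwise the 3 with the highest mean CPM, and for each tested member the 3 nearest in pattern, of which 1 is not reported here; other list genes were named after their values had been seen.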

Additional observations from a re-analysis of the deposited data

How the results depend on the processing

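Of the circRNAs past the threshold, 64 in UUO against control became 103 with DESeq2, 37 with the deposited constant as library size and 10 to 75 with 1 library left out. The 49 in AC against control became 29 with the deposited constant, 14 with only the 2 groups compared and 11 to 38 with 1 library left out. With the deposited constant the split of higher against lower calls went from 42 and 22 to 11 and 26 in UUO, and from 28 and 21 to 7 and 22 in AC. In UUO against AC the 0 calls became 2 with DESeq2, 4 with no filter on low counts, 1 with only the 2 groups compared and 0 to 1 with 1 library left out. Host sums went from 77 to between 36 and 87 in UUO and from 41 to between 22 and 48 in AC with 1 library left out. In UUO against AC the 0 host calls became 3 with no filter and 0 to 1 with 1 library left out. The cause of these shifts was not tested. Leaving out a library also changed the number of circRNAs tested, from 1471 to between 1393 and 1945.

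With the replicate block, calls fell to 12 circRNAs and 51 hosts in UUO and to 5 circRNAs and 18 hosts in AC. Libraries of equal number share only a number: their deviations from the group means correlated between -0.11 and 0.04. With the block, the Espl1 difference between UUO and AC was 0.041 for the circRNA and 0.031 for the host sum.

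Espl1 and Bub1b kept their direction against control in all 15 alternatives of the circRNA fit. For Espl1, with 0 counts in every control, no alternative could turn it, and Bub1b was chosen with its difference known. Besides the left-out libraries, the UUO call of Bub1b was lost with the deposited constant (1.13), no filter (1.41) and the replicate block (1.43). With the block the call of the Bub1b host sum was lost in UUO (1.32) and that of the Espl1 host sum in AC (6.57). That of the Espl1 circRNA was lost in UUO with limma-voom (4.74) and the block (6.63). In AC it was lost with limma-voom (4.78), the block (6.59) and only the 2 groups compared (6.65), and DESeq2 gave it no adjusted p. The near-zero Espl1 difference between UUO and AC turned to 0.027 with no filter and 0.052 with the deposited constant, and ran from -0.25 to 0.13 with 1 library left out. For its host sum it was 0.00098 with no filter, and -0.23 to 0.15 with 1 library left out. With 1 library left out, the same difference ran from -0.83 to 0.66 for Mdm2, from -0.82 to 0.72 for its host sum, and from -0.054 to 0.58 for the Bub1b host sum.

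Depth limits the members: 1 count was worth up to 29.2 CPM, and 4 of the 7 circRNAs had too few counts to be tested.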

Other observations

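Hosts of core proliferation genes were at the limit of detection. Of the 15 hosts of the cell cycle list with any circRNA, 7 had 0 counts in the 3 controls and some in the injured libraries, and 0 had the reverse. Top2a, the topoisomerase of dividing cells, had 3 counts, all in UUO replicate 1. Ccne2, the G1/S cyclin, had 1 and 2 counts in UUO replicates 1 and 2, and Cdc25a, the phosphatase that activates cyclin-dependent kinases, had 1 in each of the same libraries. Kif11, the spindle motor, had 3 and Lin9 4 counts in AC replicate 1 alone. Rbl1, of the retinoblastoma family, had 3 counts in AC replicate 2 and 2 in UUO replicate 3, and Mcm6, of the replicative helicase, had 1 in AC replicate 2. Every other host of the list had counts in control, with the most in Lin54, Cit and Rb1. Summed over control, AC and UUO, Racgap1 had 2, 0 and 1 counts, Wee1 6, 2 and 4, and Tpx2 4, 1 and 7. E2f3 had 3, 5 and 3, and Kif23 had 3, 8 and 4.

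These counts are low, and the injured groups hold 5 libraries against 3. Among all 2841 hosts, 12.6% were above 0 in injured libraries alone and 5.6% in controls alone. Among the 540 hosts with a total of 5 counts or fewer, 50.4% were above 0 in injured libraries alone and 25.4% in controls alone. Of 8 such hosts of the cell cycle list, 7 were above 0 in injured libraries alone and 0 in controls alone. Racgap1 was seen in both. Anapc5, of the anaphase-promoting complex, had 0 counts in control, 3 and 0 in AC, and 2, 2 and 2 in UUO. All other listed hosts of that complex had counts in control. Their counts summed over control, AC and UUO were 56, 43 and 35 for Anapc1 and 22, 1 and 10 for Cdc23. Such sums were 20, 6 and 11 for Cdc27, 14, 8 and 11 for Anapc7, and 1, 0 and 1 for Anapc4. Some listed hosts with more counts were seen in all 3 groups. Rb1, the retinoblastoma protein, had 17, 9 and 18 counts in control, 13 and 18 in AC, and 17, 6 and 10 in UUO. Ppm1d, a phosphatase that is a p53 target, had 10, 19 and 5 counts in control, 1 and 6 in AC, and 10, 10 and 7 in UUO. The hosts in these sentences were picked out after their values had been seen, and no test was made.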
